A study of Homo sapiens with 12 samples.

Results

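HaCaT cells given M5 together with retapamulin were compared with untreated HaCaT cells, to ask which state the treated cells had reached relative to the baseline culture. HaCaT is an immortalised human keratinocyte line, and the labels give the same wild-type genotype for every sample. The comparison used 6 of the 12 RNA sequencing libraries of the series, 3 from cells given M5 and retapamulin and 3 from cells given no treatment. The other 6 libraries, 3 from cells given M5 alone and 3 from cells given M5 and lefamulin, entered the same statistical fit and are shown where they help to place the treated cells. Genes were chosen by an expression filter, which kept 14207 of the 22545 genes in the deposited table. The labels state neither the content of M5 nor any dose, time or solvent, and there was no culture given retapamulin without M5, so the contrast measures M5 and retapamulin jointly. The extraction protocol speaks of epidermis from mice, which goes against the HaCaT source given for all samples. Nothing in the labels says that the 3 libraries of a group came from separate cultures, so the p-values measure the spread between these samples, which may be technical.

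Retapamulin and lefamulin are pleuromutilin antibacterials, which share a tricyclic core, differ in the side chain attached to it, and act on the peptidyl transferase centre of the bacterial ribosome. Keratinocytes are the main cells of the epidermis. In culture they can proliferate, with basal keratins and adhesion to laminin, or differentiate and build the cornified envelope, and under inflammatory cytokines they secrete chemokines and antimicrobial proteins through the transcription factors NF-kB, STAT3 and AP-1. They also make cholesterol and fatty acids through enzymes that the SREBP transcription factors induce when sterols in the endoplasmic reticulum are low.

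The 6 libraries held between 35110519 and 37520999 counts, with at least 1 count for 17009 to 17955 genes. Levels are given in CPM, the counts in relation to library size with TMM factors, as mean ± SD with n = 3 in every group. Keratinocyte markers were present in both groups: KRT5 was at 1632 ± 46.3 CPM in untreated cells and 437 ± 12.4 CPM with M5 and retapamulin, TP63 at 104 ± 5.4 and 86.5 ± 3.52 CPM, and ITGA6 at 238 ± 20.7 and 598 ± 6.53 CPM. KRT14 was low in both, at 8.52 ± 0.47 and 0.73 ± 0.275 CPM. Among the markers of other cell types, the summed level (CPM on library totals) of 8 fibroblast markers was 7.79 to 8.72 in untreated and 8.7 to 10.2 in treated cells, with LUM and THY1 at 0 in both groups, and the 2 T cell markers in the table summed to at most 0.0566. The 6 melanocyte markers in the table summed to 28.1 to 29.6 and 17.8 to 19.9, with TYRP1 and SOX10 at 0. The 3 endothelial markers in the table summed to 15.9 to 18.6 and 92.9 to 105, nearly all of it CDH5, and the 5 macrophage and dendritic markers in the table to 13.5 to 15.4 and 69.8 to 77.4, nearly all of it CD68, while CD14 was at 0.391 ± 0.0461 and 0.0689 ± 0.016 CPM. In RNA from whole cultures, fewer cells of a type and less RNA per cell cannot be told apart.

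The treated cells differed from the baseline in most genes tested. Of the 14207 genes tested, 5337 (37.6%) were higher and 5817 (40.9%) were lower with M5 and retapamulin than in untreated cells (edgeR quasi-likelihood test, Benjamini-Hochberg adjusted p under 0.05). At least 2-fold, 1895 genes (13.3%) were higher and 2051 (14.4%) lower, and at least 4-fold, 705 were higher and 607 lower. For 11257 genes (79.2%) the 3 treated libraries did not overlap the 3 untreated ones. The median log2 fold change over all genes tested was -0.06, and every count for a gene list in the text is to be read against that median and against the shares of 37.6% and 40.9%. The balance between both directions depended on the scaling: on library totals alone 3891 genes were higher and 7657 lower, higher genes made up 33.7% in place of 47.8% of the calls, and the median moved to -0.31. The TMM factors were 1.0864 to 1.1087 in the untreated and 0.9148 to 0.9311 in the treated libraries. Of the 3552 tested genes with the lowest mean level 690 were higher and 1375 lower, and of the 3552 with the highest level 2006 were higher and 1170 lower.

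**Figure D1:**
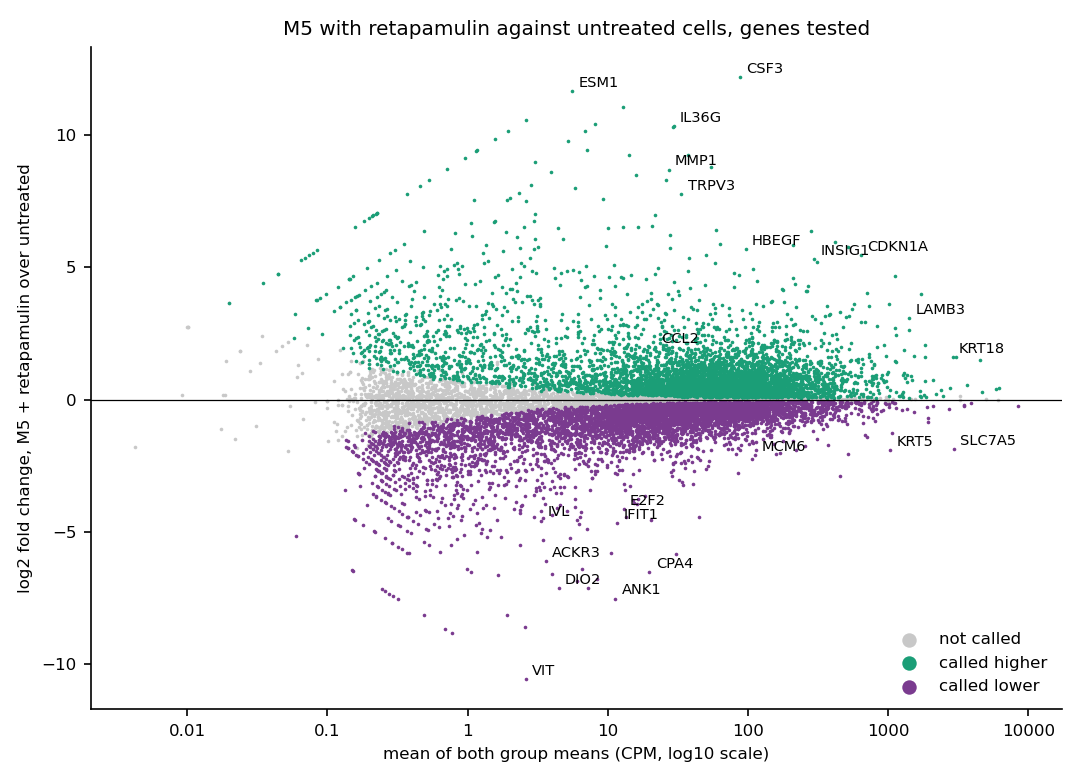
Log2 fold change of M5 with retapamulin over untreated (y) against the mean of both group means in CPM (x, log scale), 1 point per gene tested, with 2 genes at 0 in both groups left out. CSF3 lies at 12.19 and ANK1 at -7.53. KRT18 and LAMB3, both among the abundant mRNAs, lie above 0, and the abundant SLC7A5 and KRT5 below it.

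M5 alone moved fewer genes: 4022 (28.3%) were higher and 3817 (26.9%) lower than in untreated cells, with 720 and 785 of them changed at least 2-fold, and on library totals alone 2675 were higher and 5823 lower. Adding retapamulin to M5 made 4842 genes (34.1%) higher and 5404 (38.0%) lower than with M5 alone. These comparisons share libraries with the main contrast, so their values are given side by side only. The root mean square difference between group means on the log2 CPM scale was 0.859 between untreated cells and M5, 1.21 between untreated cells and M5 with retapamulin, and 0.923 between M5 and M5 with retapamulin. Single libraries, which carry more noise than means of 3, lay up to 0.343 apart in the untreated group and up to 0.402 apart with M5 and retapamulin. Thus the treated cells were farther from untreated cells than cells given M5 alone were, by 1.21 against 0.859. With lefamulin in place of retapamulin the distance to untreated cells was 1.09.

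**Figure D2:**
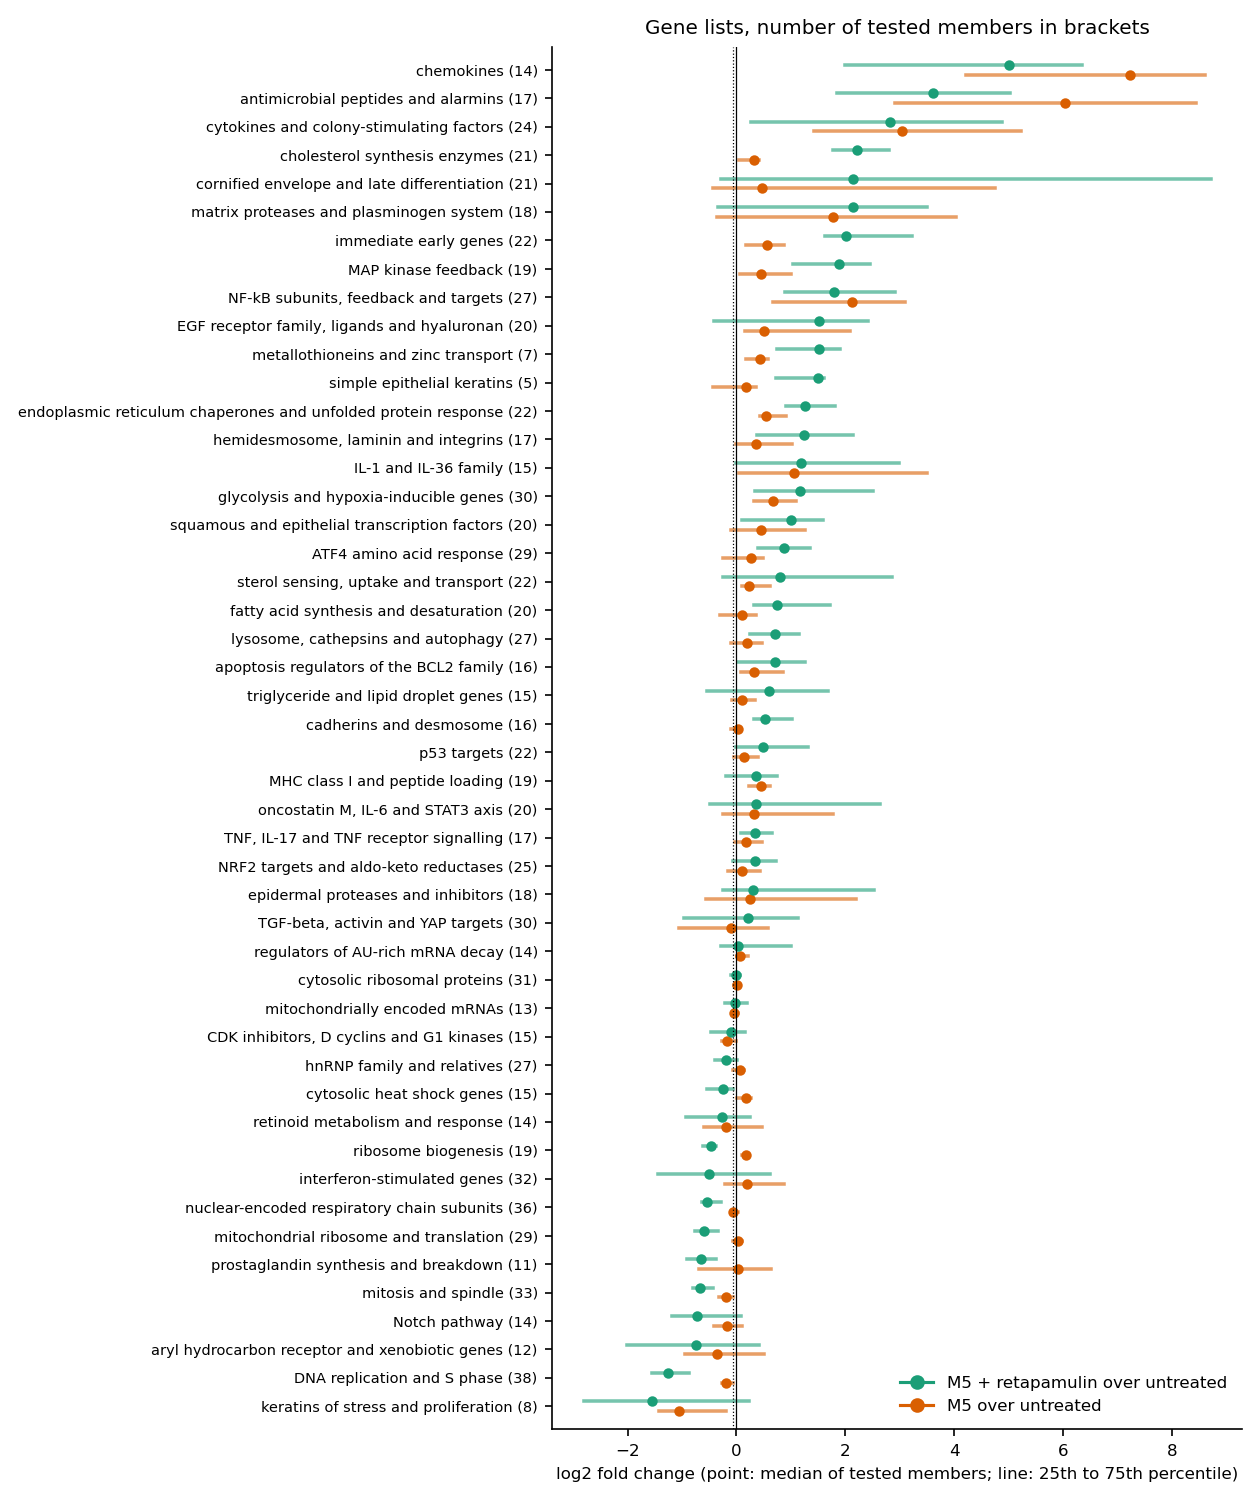
Median (point) and 25th to 75th percentile (line) of the log2 fold change of the tested members of 48 gene lists, for M5 with retapamulin over untreated and for M5 over untreated, which share the untreated libraries. The dotted line marks the median of all genes tested, -0.06. Chemokines and antimicrobial genes lie farther right with M5 alone, and cholesterol enzymes, immediate early genes and MAP kinase feedback genes lie farther right with retapamulin added.

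Secreted inflammatory mediators were high in the treated cells. Of 14 tested chemokine genes 13 rose and 1 fell, and the median change was 5.01 on the log2 scale. With genes of at most 3 counts in a group set at their count ratio or lower bound, it was 4.13. The list took 0.0164% of the counts in untreated cells, 0.349% with M5 and 0.124% with M5 and retapamulin. CXCL8, the neutrophil attractant interleukin 8, stood at 6.54, 6.2 and 7.15 CPM in the 3 untreated libraries and at 556, 557 and 553 CPM in the treated ones. All 3 treated libraries lay far above all untreated ones, a log2 fold change of 6.39 (SE 0.05, edgeR adjusted p = 1.76e-30). M5 alone gave 987 ± 45.9 CPM. CXCL1 rose from 7.2 ± 0.645 to 409.8 ± 13.8 CPM and CXCL3 from 0.738 ± 0.203 to 54.9 ± 1.48 CPM, with 1071 and 200.3 CPM under M5 alone, although reads shared between these closely related genes could not be examined. CXCL5 had 2 counts over the untreated libraries and was 233-fold higher (95% counting interval 64.2 to 1933). CCL20, which draws CCR6-bearing T cells and dendritic cells, had no untreated counts and was at least 92.1-fold higher. CCL2, the monocyte attractant, lay between: its libraries were at 8.84, 8.59 and 9.05 CPM untreated, 758, 783 and 808 CPM with M5 and 35.5, 34.5 and 34.1 CPM with M5 and retapamulin. The treated libraries lay above the untreated ones (log2 fold change 1.97, SE 0.05) and far below those given M5. CCL26, an eosinophil attractant, was the chemokine that fell, from 1.5 ± 0.192 to 0.159 ± 0.0775 CPM.

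Promoters of some chemokines that rose are shown because they carry the same kappa B letters at a like distance from the start site. RefSeq promoter sequences (GRCh38.p14), from 250 bases before to 50 after the start, were at hand for 10 of the 14 genes. Of these, 5 (50%) held GGAATTTCC on either strand, against 0.488% of all 22114 promoters and 0.459% of the 8066 promoters of tested genes. The 5 were CXCL1, CXCL3, CXCL5, CXCL6 and CXCL8, related genes close together on chromosome 4, so their matches are not independent. The promoter of CCL20, which also rose, did not hold it but held another kappa B form searched, GGGNNTTCC, at position -79. That form was in 3 of the 10 promoters (30%), against 6.56% of all promoters and 8.41% of those of tested genes. In the following 80-base windows, written 5′ to 3′ on the gene's strand, capitals mark GGAATTTCC. It begins at position -78 for CXCL1 (chr4:73869279-73869358, plus strand), -90 for CXCL5 (chr4:73998724-73998803, minus strand) and -91 for CXCL8 (chr4:73740442-73740521, plus strand), counted from the start site.
CXCL1: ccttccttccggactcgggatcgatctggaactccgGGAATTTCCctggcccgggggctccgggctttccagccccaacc
CXCL5: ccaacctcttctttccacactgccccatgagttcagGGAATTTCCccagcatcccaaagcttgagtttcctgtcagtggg
CXCL8: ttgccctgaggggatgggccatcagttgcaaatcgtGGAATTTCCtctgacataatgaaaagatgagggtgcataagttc
A match describes the letters and shows no binding.

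Cytokines and colony-stimulating factors moved with the chemokines. Of 24 tested, 18 rose and 4 fell, with a median of 2.81 beside 3.05 with M5 alone. With genes of at most 3 counts in a group set as for the chemokines, the first median was 2.41. CSF3, the granulocyte colony-stimulating factor, had the largest fitted rise of all genes tested: 0, 0.0259 and 0.075 CPM untreated and 175, 174 and 176 CPM treated (log2 fold change 12.19). The highest of these untreated values, 0.075 CPM, is 3 counts, so the size of this fold is uncertain and no SE is given. CSF3 was at 317 ± 2.74 CPM with M5 alone. IL24, a cytokine of the IL-10 family that acts on keratinocytes, was 3039-fold higher (95% counting interval 545 to 120100, from 1 count in 1 untreated library), at 25.8 ± 1.84 CPM treated and 13.7 ± 0.215 CPM with M5. CSF2, the granulocyte-macrophage factor, went from 0.272 ± 0.0369 to 25.3 ± 1.17 CPM and IL11 from 1.57 ± 0.538 to 41.7 ± 2.54 CPM, while M5 alone gave 1.66 and 4.49 CPM. IL23A, which encodes the p19 subunit of interleukin 23, rose from 2.67 ± 0.213 to 30.3 ± 0.582 CPM with 7.08 CPM under M5. For these 3 genes every treated library was above every library given M5 alone. TNFSF10, the death ligand TRAIL, ran the other way, from 14.8 ± 1.4 CPM untreated to 78.2 ± 3.72 CPM with M5 and 3.12 ± 0.406 CPM with M5 and retapamulin (log2 fold change -2.24, SE 0.10). LIF rose by 5.75 and IL6 by 3.84 on the log2 scale.

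Within the IL-1 and IL-36 family, 10 of 15 tested genes rose and 3 fell (median 1.18). Agonists and antagonists were high together. IL36G, the agonist interleukin 36 gamma, was at 0.0511, 0.0259 and 0.05 CPM untreated and 59.9, 59.98 and 57.2 CPM treated, with 10.9 ± 0.62 CPM under M5. IL1RN, the interleukin 1 receptor antagonist, was at 2.45, 2.26 and 2.3 CPM untreated and 39.03, 37.4 and 37.8 CPM treated, with no overlap (log2 fold change 4.03, SE 0.10). IL36RN, the antagonist of the IL-36 receptor, rose from 3.79 ± 0.362 to 18.95 ± 1.44 CPM. M5 alone gave 1.5 ± 0.371 CPM of IL1RN and 0.468 ± 0.093 CPM of IL36RN, both under the untreated means. IL1B, by contrast, was at 27.6, 464 and 78.7 CPM in untreated, M5 and treated cells.

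Antimicrobial peptides and alarmins rose in 16 of 17 tested genes and fell in 0, with a median of 3.61 beside 6.02 with M5 alone. LCN2, which encodes the iron-siderophore trap lipocalin 2, was at 15.97, 18.4 and 14.8 CPM untreated and 588, 603 and 627 CPM treated. Its treated libraries were well above the untreated ones and below the M5 mean of 819 CPM. S100A9, a subunit of calprotectin, went from 8.49 ± 0.488 CPM to 104 ± 3.53 CPM, against 954 ± 13.4 CPM with M5. RNASE7, an antimicrobial ribonuclease of skin, was ordered differently, at 2.11 ± 0.361, 5.31 ± 0.491 and 125 ± 3.33 CPM in untreated, M5 and treated cells. PI3, the elastase inhibitor elafin, rose by 8.80 on the log2 scale (SE 0.10). DEFB4A, a beta-defensin with near-identical copies, had no untreated counts and was at least 90.5-fold higher.

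Genes of the NF-kB pathway rose in 25 of 27 cases and fell in 1, with a median of 1.78 beside 2.12 with M5. TNFAIP3, the ubiquitin-editing feedback inhibitor A20, was at 20.9, 17.5 and 21.6 CPM untreated and 407, 422 and 411 CPM treated (log2 fold change 4.37, SE 0.05), above the 317 ± 2.76 CPM of M5 alone. NFKBIA, which encodes the inhibitor IkB alpha, rose by 1.26. SOD2, the mitochondrial superoxide dismutase and an NF-kB target, went from 85.5 ± 2.41 to 1054 ± 16.5 CPM, with 2923 ± 90.2 CPM under M5. TNFAIP2 was the member that fell, from 159.8 ± 1.69 to 54.5 ± 0.389 CPM, though M5 alone gave 755 ± 15.9 CPM. Of 17 genes of TNF and IL-17 receptor signalling 12 rose and 2 fell (median 0.34), which became 7 and 5 on library totals alone. Of 20 genes of the oncostatin M, IL-6 and STAT3 axis 12 rose and 7 fell (median 0.35). Its feedback inhibitor SOCS3 rose by 4.50.

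TNF and HNRNPU, the 2 genes that the series title refers to, moved in opposite directions from baseline. TNF was at 0.409, 0.545 and 0.45 CPM in the untreated libraries and at 2.92, 2.18 and 2.8 CPM in the treated ones, which did not overlap (log2 fold change 2.49, SE 0.24, edgeR adjusted p = 1.16e-09). M5 alone gave 5.29, 4.73 and 5.34 CPM, so that the treated libraries lay between untreated and M5 libraries. HNRNPU, which encodes a nuclear RNA-binding scaffold protein, was at 889, 862 and 888 CPM untreated and 685, 667 and 671 CPM treated. Every treated library was below every untreated one, by -0.38 on the log2 scale (SE 0.03, edgeR adjusted p = 9.13e-12), and M5 alone gave 974 ± 31.2 CPM. Of 27 tested genes of the hnRNP family and its relatives 18 fell and 5 rose (median -0.19), and on library totals alone 24 fell and 1 rose.

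Interferon-stimulated genes were split and mostly below baseline. Of 32 tested, 21 fell and 10 rose, with a median of -0.51. With M5 alone 16 were higher and 7 lower than untreated, with a median of 0.20. IFIT1, which binds viral RNA lacking cap methylation, was at 21.8, 21.8 and 23.6 CPM untreated and 0.964, 0.826 and 0.816 CPM treated (log2 fold change -4.68, SE 0.14), with 6.35 ± 0.462 CPM under M5. IFIT2, EPSTI1, GBP1 and MX1, a restriction factor of RNA viruses, fell with log2 fold changes of -2.39, -3.66, -2.15 and -2.10. ISG20, an RNA exonuclease, moved the other way, from 0.23, 0.415 and 0.45 CPM in the untreated to 12.5, 10.1 and 10.2 CPM in the treated libraries. STAT2, a subunit of the interferon-activated factor ISGF3, rose from 66.7 ± 2.29 to 154 ± 5.22 CPM. Of 19 genes of MHC class I and peptide loading 12 rose and 5 fell (median 0.36, or 0.11 on library totals).

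Genes of this list that fell and genes that rose carried the same response element letters. Promoter sequences were at hand for 17 of the 32 genes, and 12 of them (70.6%) held GAAANNGAA on either strand, against 8.6% of all promoters and 6.68% of those of tested genes. IFIT1 (chr10:89392472-89392551, plus strand), which fell, holds it 2 times with the first at position -115, and ISG20 (chr15:88638911-88638990, plus strand), which rose, at position -69. Capitals mark the matches.
IFIT1: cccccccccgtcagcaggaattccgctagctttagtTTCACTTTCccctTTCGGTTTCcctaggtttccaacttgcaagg
ISG20: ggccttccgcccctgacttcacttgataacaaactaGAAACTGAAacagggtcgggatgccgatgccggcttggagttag

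**Figure D3:**
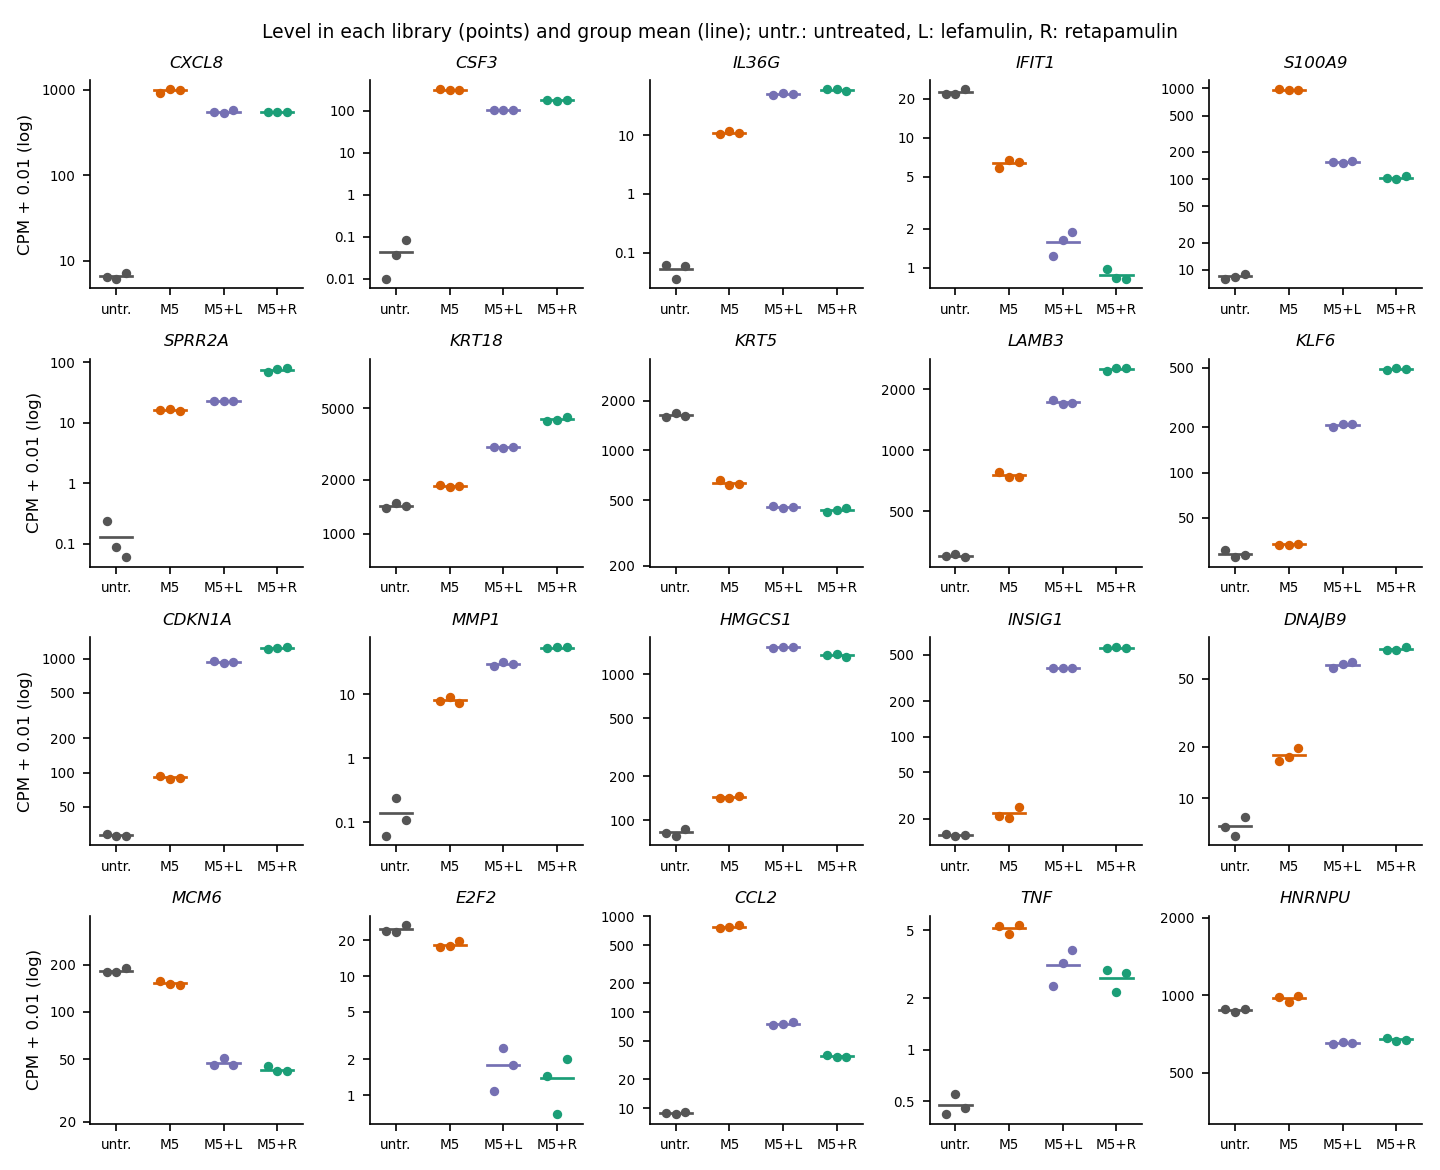
CPM + 0.01 on a log axis for 20 genes in each of the 12 libraries (points) with the group mean (line). CXCL8, S100A9, CCL2 and TNF are highest with M5 alone and lie between M5 and untreated with M5 and retapamulin, whereas LAMB3, KLF6, CDKN1A, INSIG1 and HMGCS1 are several-fold above both untreated and M5 libraries and MCM6 and E2F2 are below both.

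The differentiation programme was raised in part. Of 21 tested genes of the cornified envelope and late differentiation, from 41 listed and 35 in the table, 12 rose, 11 of them at least 2-fold, and 6 fell, with a median of 2.14 beside 0.47 with M5 alone. The members that rose were mainly small proline-rich proteins, the cross-linked precursors of the envelope, and lipid-barrier genes. SPRR2A was at 0.23, 0.0778 and 0.05 CPM untreated and 67.96, 77.3 and 79.98 CPM treated, with 16.3 ± 0.616 CPM under M5, and its near-identical relatives make the assignment of reads uncertain. PRR9, a proline-rich protein of the same chromosomal cluster, was at 0, 0.104 and 0.025 CPM untreated and 58.4, 57.2 and 59.7 CPM treated, with 0.109 ± 0.0737 CPM under M5. ALOX12B, a lipoxygenase of the skin lipid barrier, had no untreated counts and was at least 124-fold higher. ABCA12, which loads lipids into lamellar granules, rose by 3.07. IVL, the envelope protein involucrin, fell from 6.85, 6.28 and 6.17 CPM to 0.121, 0.236 and 0.437 CPM (log2 fold change -4.58, SE 0.32), and M5 alone gave 0.325 ± 0.166 CPM. FLG, the filament aggregator filaggrin, fell by 3.09. TGM1, the transglutaminase that cross-links the envelope, was at 2.75 ± 0.34 and 2.2 ± 0.649 CPM and was not called (edgeR adjusted p = 0.186), though on library totals it was called lower.

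Some of the envelope genes that rose, and involucrin, which fell, shared AP-1 letters near the start. Among the 12 tested envelope genes with a promoter sequence 7 (58.3%) held TGACTCA on either strand, against 5.12% of all promoters and 3.5% of those of tested genes. The 7 were IVL, SPRR1A, SPRR1B, SPRR2A, SPRR2F, PRR9 and SBSN. All but SBSN lie close together on chromosome 1, so their matches are not independent. SPRR1A was 1896-fold higher (95% counting interval 339.9 to 74950) at 16.1 ± 0.639 CPM treated. The windows are from SPRR1A (chr1:152983937-152984016, plus strand, match at -108), PRR9 (chr1:153217411-153217490, plus strand, match at -137) and IVL (chr1:152908387-152908466, plus strand, match at -123), with the match in capitals.
SPRR1A: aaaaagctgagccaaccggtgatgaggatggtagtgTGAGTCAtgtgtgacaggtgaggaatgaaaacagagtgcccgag
PRR9: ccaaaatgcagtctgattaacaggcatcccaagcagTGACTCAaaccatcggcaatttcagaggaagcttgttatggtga
IVL: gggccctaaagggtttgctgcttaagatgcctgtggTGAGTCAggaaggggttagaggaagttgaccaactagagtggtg

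Keratins of the simple epithelial pair were higher and those of basal and stress types mostly lower. KRT8 was at 2319, 2491 and 2346 CPM untreated and 6636, 6647 and 6857 CPM treated, and its partner KRT18 at 1389, 1473 and 1426 and 4238, 4311 and 4453 CPM, with no overlap in either (log2 fold changes 1.49 and 1.60). By FPKM, a unit per gene length, KRT8 moved from the 25th to the 8th most abundant mRNA, from 1317 to 3107 FPKM. KRT5, the basal type II keratin, was at 1588, 1680.2 and 1627 CPM untreated and 424, 437 and 449 CPM treated (log2 fold change -1.90, SE 0.03), with 637 ± 25.3 CPM under M5. KRT16, KRT17 and KRT14 fell with log2 fold changes of -3.28, -2.65 and -3.54, KRT15 rose by 0.74, and KRT6A, which has close paralogs, was at 37.9 ± 2.29 and 39.3 ± 0.561 CPM (adjusted p = 0.309 by edgeR, and lower on library totals). KRT6B, the other member of the stress list that rose, had 1 count over the untreated libraries and was 32.5-fold higher (95% counting interval 5.37 to 1329), at 0.279 ± 0.23 CPM treated and 2.53 ± 0.539 CPM with M5, though it was not called by limma on log2(FPKM + 1) (adjusted p = 0.0886). In all 5 of 8 tested keratins of stress and proliferation fell and 2 rose (median -1.55), while 4 of 5 simple epithelial keratins rose and 1, KRT7, fell. With M5 alone the medians were -1.06 for the stress keratins and 0.17 for the simple keratins.

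Among squamous and epithelial transcription factors 14 of 20 rose and 5 fell (median 1.01). PRDM1, the repressor BLIMP1 found in differentiating epidermis, rose from 0.0683 ± 0.0395 to 2.57 ± 0.379 CPM, CEBPB from 34.1 ± 2.6 to 205 ± 7.06 CPM, and OVOL1 by 2.00 on the log2 scale. CEBPA fell by 2.02, and SOX2, a progenitor factor, was 31.02-fold lower (95% counting interval 5.22 to 1259). Notch pathway genes fell in 9 of 14 cases and rose in 3 (median -0.73). LFNG, the glycosyltransferase that modifies Notch receptors, fell from 10.4 ± 0.824 to 0.275 ± 0.0699 CPM, and the targets NRARP and HES1 fell with log2 fold changes of -1.60 and -0.97. TP63, the lineage factor of stratified epithelia, fell by 0.27.

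Genes of hemidesmosomes, their laminin and integrins rose in 16 of 17 cases, 10 of them at least 2-fold, with a median of 1.25 beside 0.36 with M5. They took 0.385% of untreated counts and 1.24% of treated counts. LAMB3, a chain of the laminin that anchors the basal layer, was at 298, 306 and 296 CPM untreated and 2469, 2542 and 2547 CPM treated. M5 alone gave 753 ± 26.2 CPM, and all treated libraries were above those as well. LAMA3, the alpha chain of the same laminin, rose by 2.14. ITGA2, a collagen-binding integrin subunit, rose from 152 ± 11.3 to 1871 ± 16.98 CPM, with 257 ± 7.24 CPM under M5. DST, which encodes the plaque protein BPAG1 among other products, was the member that fell, by -0.88. Cadherins and desmosomal genes rose in 13 of 16 cases and fell in 2 (median 0.53), with CDH3, P-cadherin, higher by 1.53.

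Immediate early genes, which growth factor and stress kinases induce without new protein, rose in all 22 of 22 tested cases, 20 of them at least 2-fold, and in 21 of 22 on library totals alone. The median was 2.01 beside 0.56 with M5. KLF6, a zinc finger factor, was at 30.6, 27.3 and 28.05 CPM untreated and 482, 496 and 492 CPM treated, while M5 alone gave 33.1, 33.1 and 33.4 CPM. FOSL1, the AP-1 subunit FRA1, rose from 58.1 ± 1.68 to 669 ± 30.6 CPM and EGR1 from 15.1, 15.5 and 17.9 CPM to 96.9, 108 and 104 CPM (log2 fold change 2.67, SE 0.07), though EGR1 stood at only 10.1 ± 0.954 CPM with M5. The feedback inhibitors of MAP kinase signalling rose in 17 of 19 cases and fell in 2 (median 1.88, M5 0.44). DUSP5, a nuclear ERK phosphatase, rose from 20.8 ± 1.62 to 271 ± 4.4 CPM with 23.01 ± 0.837 CPM under M5, and DUSP6 rose by 1.98 and SPRY4 by 2.80, while SPRY1 and DUSP2 fell.

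Ligands of the EGF receptor and matrix proteases stood beside them. HBEGF, the heparin-binding ligand, was at 3.55, 3.68 and 3.77 CPM untreated and 183, 193 and 189 CPM treated, against 51.6 ± 1.29 CPM with M5 (log2 fold change from untreated 5.68, SE 0.05). AREG rose by 3.38, and the hyaluronan synthases HAS2 and HAS3 by 3.97 and 1.52. The receptor EGFR itself rose by 0.68, NRG1 fell by 1.18, and ERBB4, with no counts in the treated libraries, was at least 33.03-fold lower. Of 20 tested genes in that list 13 rose and 7 fell. MMP1, interstitial collagenase, was at 0.0511, 0.233 and 0.1 CPM untreated and 52.6, 54.4 and 55.9 CPM treated, with 8.04 ± 0.85 CPM under M5. PLAU, urokinase, and PLAUR, its receptor, rose by 3.53 and 4.20, whereas TIMP3, an inhibitor of metalloproteases, fell with a log2 fold change of -2.13. Of 18 tested genes of that system 13 rose and 5 fell. Among TGF-beta, activin and YAP targets 17 of 30 rose and 11 fell, with a median of 0.22 that turned to -0.03 on library totals. INHBA and its antagonist FST rose by 2.68 and 3.68, TGFB2 fell from 39.02 ± 3.61 to 1.66 ± 0.723 CPM, and SMAD6 and ID3, targets of BMP signalling, fell with log2 fold changes of -5.82 and -2.79.

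Genes of sterol synthesis were far above baseline with retapamulin added and close to it with M5 alone. Of 21 tested enzymes of cholesterol synthesis 20 rose, 18 at least 2-fold, and 1, PMVK, fell, with a median of 2.21 beside 0.32 with M5. The list took 0.205% of untreated counts, 0.234% with M5, 0.927% with retapamulin added and 1.13% with lefamulin added. HMGCS1, which makes HMG-CoA, was at 82.3, 78.4 and 87.7 CPM untreated and 1339, 1368 and 1309.7 CPM treated (log2 fold change 4.02, SE 0.04). M5 alone gave 144 ± 2.34 CPM. SQLE, squalene epoxidase, rose by 3.06. INSIG1, the sterol-dependent anchor that holds SREBP in the endoplasmic reticulum and is itself a target, was at 14.8, 14.3 and 14.6 CPM untreated and 575, 585 and 566 CPM treated, with 22.3 ± 2.7 CPM under M5. SREBF2 rose by 1.01 and SREBF1 by 0.28, the latter not called on library totals, the sterol carriers STARD4 and NPC1 by 3.59 and 3.23, and MYLIP, a ligase for lipoprotein receptors induced by liver X receptors, fell by 1.92. Of 22 tested genes of sterol sensing, uptake and transport 13 rose and 7 fell (median 0.80), with 11 and 8 on library totals. Fatty acid genes rose in 15 of 20 cases and fell in 3 (median 0.74). FASN, fatty acid synthase, went from 392 ± 12.8 to 2402 ± 23.1 CPM with 437 ± 16.6 CPM under M5, ACSS2 and SCD rose by 3.51 and 2.06, and ACACB, the mitochondrial acetyl-CoA carboxylase, fell by 2.45. LPIN1, a phosphatidate phosphatase, rose by 4.30 in the triglyceride list, where 8 of 15 rose and 5 fell. The sterol element letters TCACCCCAC were in 0 of the 12 promoters at hand for the cholesterol enzymes and in 0.439% of all promoters.

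**Figure D4:**
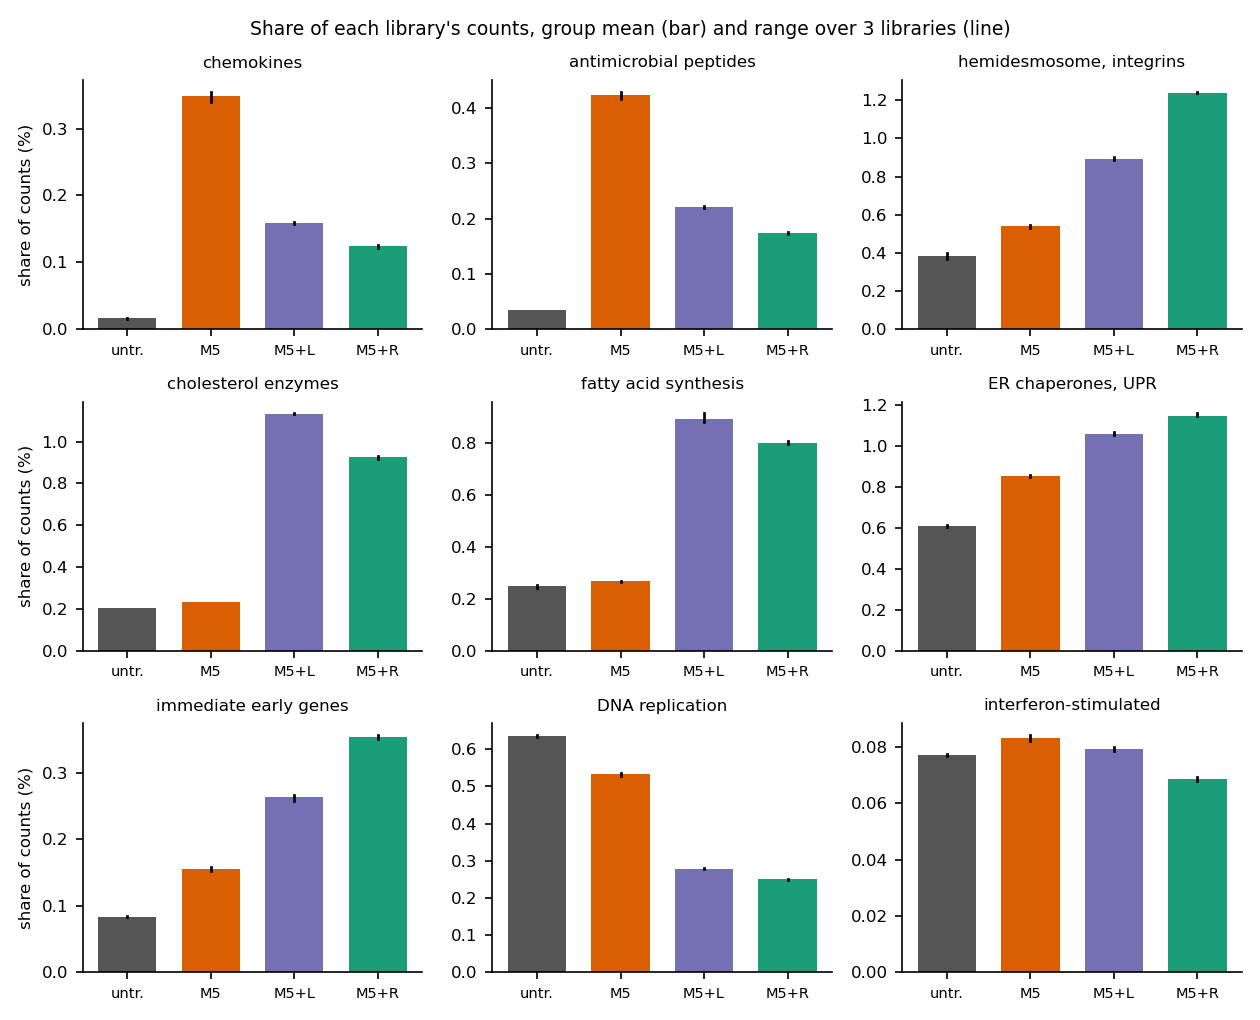
Share of each library's counts (%) taken by 9 gene lists, as the mean of 3 libraries (bar) with their range (line), in untreated cells and with M5, M5 and lefamulin, and M5 and retapamulin. Chemokines peak with M5 alone. The cholesterol enzymes take 0.927% and DNA replication genes 0.25% with retapamulin, against 0.205% and 0.635% in untreated cells. With M5 and lefamulin these lists take 1.13% and 0.279%.

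Most tested genes of the endoplasmic reticulum stress and amino acid response lists were raised. All 22 of 22 tested chaperones and unfolded protein response genes rose, under each scaling tried, with a median of 1.25 beside 0.54 with M5. DNAJB9, a lumenal co-chaperone, was at 6.85, 6.04 and 7.75 CPM untreated and 72.9, 73.8 and 76.7 CPM treated. HSPA5, the chaperone BiP, rose from 731 ± 13.6 to 2305 ± 31.4 CPM, XBP1 by 1.83 and EIF2AK3, the kinase PERK, by 2.43. ATF4 and its amino acid response rose in 23 of 29 cases and fell in 5 (median 0.88). GDF15, DDIT4 and CHAC1 rose by 3.48, 2.82 and 2.41, but the transporter pair of neutral amino acids ran against them: SLC7A5 fell from 4643, 4701 and 4584 CPM to 1233, 1278 and 1305 CPM, and SLC3A2, its heavy chain, fell by 1.27. M5 alone gave 2609.6 ± 47.2 CPM of SLC7A5. The amino acid response list took 1.05% of untreated counts, 0.755% with M5 and 0.751% with M5 and retapamulin. Its share of the counts thus fell although most of its members rose. Cytosolic heat shock genes fell in 11 of 15 cases and rose in 3 (median -0.25).

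Glycolysis and hypoxia-inducible genes rose in 26 of 30 cases and fell in 3 (median 1.17, M5 0.66). The glucose transporter SLC2A3 rose from 0.135 ± 0.079 to 9.44 ± 1.48 CPM, VEGFA, the angiogenic growth factor, from 44.5 ± 0.744 to 363 ± 1.83 CPM, and CA9 fell by 1.11. Metallothioneins and zinc transporters rose in 6 of 7 cases and fell in 0, with MT2A, a metal-binding protein, at 94.1, 106 and 87.6 CPM untreated and 986, 997 and 1064 CPM treated, which made it the 13th most abundant treated mRNA by FPKM. HMOX1, heme oxygenase 1, rose from 0.128 ± 0.0687 to 5.4 ± 0.362 CPM within NRF2 targets, of which 16 of 25 rose and 6 fell (on library totals 12 and 9). Lysosomal and autophagy genes rose in 23 of 27 cases and fell in 3 (median 0.70). WIPI1, a protein of forming autophagosomes, was at 1.66, 1.19 and 1.32 CPM untreated and 44.7, 44.6 and 43.8 CPM treated, with 2.49 ± 0.471 CPM under M5, and SQSTM1, the autophagy receptor p62, rose from 284 ± 6.31 to 801 ± 9.11 CPM.

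Genes of the cell cycle were low. All 38 of 38 tested genes of DNA replication and S phase fell, 26 of them at least 2-fold, with a median of -1.25 beside -0.19 with M5, and all 38 fell on RLE and library-total scaling too. They took 0.635% of untreated counts, 0.532% with M5 and 0.25% with retapamulin added. MCM6, a subunit of the replicative helicase, was at 180.1, 180.3 and 189 CPM untreated and 45.1, 41.7 and 41.8 CPM treated, and PCNA, the polymerase clamp, fell from 277 ± 10.02 to 117 ± 4.99 CPM. E2F1, the transcription factor of S phase entry, was at 57.4, 62.00 and 55.99 CPM untreated and 10.4, 12.4 and 11.9 CPM treated (log2 fold change -2.34, SE 0.07), and E2F2 fell furthest, from 24.6 ± 1.77 to 1.38 ± 0.668 CPM. M5 alone left E2F1 at 52.8 ± 2.05 and MCM6 at 153 ± 4.73 CPM. Mitosis and spindle genes fell in 30 of 33 cases with a smaller median of -0.67, 5 of them at least 2-fold. KIF20A, a kinesin of cytokinesis, fell from 161 ± 2.51 to 52.8 ± 0.432 CPM and MKI67 from 802 ± 74.04 to 524 ± 6.95 CPM, and UBE2C, the only member called higher, changed by 0.12, which turned negative on library totals and in the FPKM fits. CDKN1A, the CDK inhibitor p21, was at 28.6, 27.8 and 27.9 CPM untreated and 1213, 1240.3 and 1273 CPM treated, with 90.4 ± 2.05 CPM under M5 (log2 fold change from untreated 5.47, SE 0.04). Of 15 tested CDK inhibitors, D cyclins and G1 kinases, which include CDKN1A, only 4 rose and 8 fell (median -0.11). Library totals gave 3 and 11. Among p53 targets, which also include CDKN1A, 16 of 22 rose and 4 fell (median 0.48). Of 16 genes of the BCL2 family 11 rose and 2 fell (10 and 5 on library totals), with the protective BCL2L1 and MCL1 higher by 1.48 and 0.93 and the p53-inducible killer BBC3 by 2.68.

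The promoters of replication genes held E2F letters. TTTGGCGC was in 8 of the 26 promoters at hand (30.8%), against 0.647% of all promoters and 1.18% of those of tested genes. Windows of E2F1 (chr20:33686386-33686465, minus strand, match at -20) and MCM6 (chr2:135876552-135876631, minus strand, first of 2 matches at -152) are shown with that match in capitals.
E2F1: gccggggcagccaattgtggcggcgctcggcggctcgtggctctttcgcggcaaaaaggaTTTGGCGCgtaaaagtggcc
MCM6: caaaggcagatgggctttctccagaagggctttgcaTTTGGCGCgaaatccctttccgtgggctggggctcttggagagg
TTTGAA was in 17 of 23 promoters of mitosis genes (73.9%), against 16% of all promoters and 9.45% of those of tested genes.

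Nuclear genes for mitochondria and ribosome assembly were a little below baseline, each by less than the replication genes. All 36 of 36 tested nuclear-encoded respiratory chain subunits fell, 1 of them at least 2-fold, with a median of -0.54 beside -0.06 with M5, and 33 fell with RLE scaling. NDUFB5, the member past 2-fold, fell from 73.7 ± 0.588 to 36.7 ± 2.61 CPM. Genes of the mitochondrial ribosome and its translation fell in 25 of 29 cases and rose in 1 (median -0.59), and ribosome biogenesis genes fell in 18 of 19 (median -0.47), where M5 alone had 14 higher and 1 lower. NOP56, a core protein of box C/D snoRNPs, fell from 264 ± 4.46 to 124 ± 2.58 CPM. The 13 mRNAs encoded in mitochondrial DNA had no common direction, with 4 higher, 4 lower and a median of -0.02 (3 and 7 on library totals, median 0.02 with RLE). ND3 rose from 650.2 ± 38.7 to 1328 ± 133 CPM and ND6, the only one read from the light strand, fell by 0.60. Of 31 cytosolic ribosomal proteins 6 rose and 9 fell (median -0.00), with 12 and 8 on RLE scaling and 0 and 30 on library totals, so no direction is given for them.

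Single genes with large changes are given next. ESM1, the secreted proteoglycan endocan, had no untreated counts and stood at 11.8, 12.01 and 9.59 CPM in the treated libraries, at least 436-fold higher, with 0.207 ± 0.0346 CPM under M5. GZMB, the protease granzyme B, was 1221-fold higher (95% counting interval 219 to 48270). TRPV3, a warm-sensing cation channel of keratinocytes, was at 0.256, 0.337 and 0.325 CPM untreated, 0.294, 0.137 and 0.107 CPM with M5 and 66.2, 67.8 and 66.1 CPM treated, high only in the treated libraries of these 3 groups. In the other direction VIT, at 5.16, 5.21 and 5.25 CPM untreated, had no treated counts and was at least 176-fold lower. ANK1, an ankyrin that ties membrane proteins to spectrin, fell from 22.5 ± 1.63 to 0.118 ± 0.00203 CPM, and CPA4, a carboxypeptidase, from 39.2 ± 2.07 to 0.425 ± 0.164 CPM. DIO2, which activates thyroid hormone, and MAP2K6, a kinase upstream of p38, fell with log2 fold changes of -7.14 and -7.13.

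Some of the treated state was absent from cells given M5 alone. Among genes within 0.3 log2 units of untreated under M5, the largest rises were in AHNAK2 (from 3.19 ± 0.359 to 113 ± 3.24 CPM), ZNF114 (from 0.627 ± 0.129 to 21.4 ± 0.83 CPM) and WNT9A, a secreted Wnt ligand (from 4.67 ± 0.996 to 94.01 ± 4.08 CPM). The largest falls were in ACKR3, an atypical chemokine receptor (from 7.1 ± 0.339 to 0.0985 ± 0.0157 CPM), AQP3, the glycerol channel of basal keratinocytes (from 8.61 ± 0.208 to 0.546 ± 0.314 CPM), and NGFR (from 8.33 ± 1.03 to 0.837 ± 0.159 CPM). These genes were picked on the M5 values, and the picks are a description.

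Genes higher with M5 than untreated stood at different levels with M5 and retapamulin, and they were picked on those values, so this is a description. The groups are separate samples without stated times, so no order in time is implied. Among genes raised at least 4-fold by M5, LRG1 was nearest, at 19.3, 23.01 and 20.5 CPM untreated, 98.9, 93.7 and 96.9 CPM with M5 and 21.4, 20.03 and 22.3 CPM with retapamulin added, where treated and untreated libraries overlapped. C1R, a protease of the classical complement pathway, was at 31.2 ± 2.45, 179 ± 0.974 and 34.8 ± 0.268 CPM, and its difference from baseline of 0.16 changed sign on library totals. Others were below the baseline: TNFSF10 and TNFAIP2, given above, and OASL, an interferon-induced gene, at 1.68 ± 0.575, 45.2 ± 0.878 and 0.767 ± 0.224 CPM. Others again were above M5 alone, such as ANTXR2, an anthrax toxin receptor that binds matrix, at 5.57 ± 0.449, 33.5 ± 0.15 and 152 ± 5.16 CPM, and PTAFR, the receptor for platelet-activating factor, at 7.76 ± 0.43, 43.7 ± 1.69 and 149.8 ± 5.9 CPM. Among genes at least 4-fold lower with M5 than untreated, DKK1, a secreted Wnt inhibitor, was above its baseline, at 193, 211 and 204 CPM untreated, 42.8, 42.3 and 41.7 CPM with M5 and 320.0, 332 and 337 CPM treated. GALNT5 lay between M5 and untreated, at 127 ± 6.41, 31.4 ± 1.04 and 84.4 ± 4.57 CPM, and ALPP, placental alkaline phosphatase, was below M5 alone, at 84.9 ± 4.79, 12.2 ± 0.386 and 3.94 ± 0.27 CPM.

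Cells given M5 and lefamulin were the nearest group, at a distance of 0.406 between the group means. Doses and times of both compounds are not given, so whether they were matched is not known. Directly compared, 3017 genes (21.2%) were higher and 2672 (18.8%) lower with retapamulin, with 1 pair of compounds compared and p-values adjusted over all genes, and 105 of the higher and 357 of the lower genes passed 2-fold. On library totals alone 1660 were higher and 4436 lower. With lefamulin KRT18 was at 3039 ± 24.8, INSIG1 at 385 ± 3.16, CDKN1A at 935 ± 11.7 and MCM6 at 47.2 ± 2.82 CPM, all 4 on the same side of the untreated means as with retapamulin. KLF6 was at 207 ± 4.36 CPM with lefamulin (log2 difference of retapamulin over lefamulin 1.25, SE 0.03, edgeR adjusted p = 5.51e-18). HMGCS1 was lower with retapamulin, at 1523 ± 16.3 CPM under lefamulin (-0.19, SE 0.03). Of the 21 cholesterol enzymes 17 were lower and 1 higher with retapamulin than with lefamulin (median -0.25). Among all genes tested 18.8% were lower and 21.2% higher. PRR9, TRPV3, HMOX1 and IL24 were higher with retapamulin by log2 differences of 2.55, 2.13, 1.94 and 2.24, while SERPINB3 and S100A7, which have close paralogs, were lower, with log2 differences of -2.01 and -1.69. TNF stood at 2.35, 3.19 and 3.82 CPM with lefamulin, overlapping the retapamulin libraries, a difference of -0.24 (95% interval -0.64 to 0.16, adjusted p = 0.341 by edgeR), which leaves differences of that range possible. HNRNPU stood at 647, 661 and 653 CPM with lefamulin, also overlapping the retapamulin libraries, with a difference of 0.04 (95% interval -0.01 to 0.10, adjusted p = 0.228 by edgeR), whose sign and call depended on the scaling.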

How the data were processed

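RNA sequencing libraries of 12 HaCaT samples in 4 groups of 3 were used, 6 of them in the comparison. The authors' count table gives raw whole-number counts of 22545 genes, and a second deposited table holds FPKM, which in 20422 of 20422 genes checked equalled the count over a fixed length and the column total (coefficient of variation limit 0.001). HISAT2 and HTSeq are named in the submitters' processing notes. Tool versions, genome build and strandedness were not given in those sources, so overlapping, antisense and closely paralogous genes are uncertain.

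The counts went into edgeR 4.0.16 under R 4.3.3, with filterByExpr by group and TMM factors, and a quasi-likelihood fit gave each of the 4 groups its own mean over all 12 libraries. P-values were adjusted by Benjamini-Hochberg over the 14207 genes tested, 8338 being untested, and genes were called at 0.05. The common biological coefficient of variation was 0.0449. Each SE is the size of the log2 fold change over the square root of the test's F statistic. It can understate the error where a group has few counts. The procedure was tested on simulated data. Alternatives were RLE scaling, library totals alone, DESeq2 1.42.0, limma 3.58.1 on log2 FPKM with pseudocounts of 1 and 0.1 and without a filter, other filters on low counts, the 2 groups alone, a replicate block, and leaving out each library. A group without counts was set at 3 counts over its libraries, and 1 to 3 counts were given a 95% counting interval, which covers counting error only.

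The comparison, gene lists and motifs were chosen with earlier results of these data known. Of 1104 list entries 1071 were in the table and 984 tested. The rule for named genes took the 12 largest rises and falls with at least 5 CPM and no overlap between groups, up to 2 members each way per list, genes within 0.3 of untreated under M5, genes changed at least 4-fold by M5, the 5 largest changes each way against lefamulin, and TNF and HNRNPU. Other genes named were chosen after their values were seen. Some members of the lists are counted there and not reported by name here. RefSeq promoters (GRCh38.p14, 250 bases before to 50 after the start) were matched by symbol and searched on both strands for TCACCCCAC, TCACNCCAC, GGGANTTCC, GGGNNTTCC, GGAATTTCC, GAAANNGAA, TGACTCA, TGACGTCA, TGATGCAAT, TTTGGCGC, TTTCGCGC and TTTGAA. The kappa B forms can overlap each other, as can both sterol forms and both E2F forms. The motifs shown were chosen after their shares were seen, and coordinates belong to the RefSeq build, not to the count table.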

Additional observations from a re-analysis of the deposited data

How the results depend on the processing

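The counts of genes higher and lower than untreated stayed within 1.5 times under every alternative run. The counts of genes changed at least 2-fold did not in the FPKM fits, in which a pseudocount is added: 796 (pseudocount 1), 795 (pseudocount 1, no filter) and 1204 (pseudocount 0.1) were higher, and 1044 were lower with pseudocount 1, with and without the filter. For M5 against untreated, library totals alone gave 2675 higher and 5823 lower. The FPKM fits, which also use library totals, gave 2574, 2619 and 2556 higher, and with pseudocount 1 they gave 5771 and 5895 lower. Against lefamulin, library totals gave 1660 higher and 4436 lower, and the FPKM fits 1593, 1539 and 1493 higher and 4171 and 4289 lower.

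Signs turned for 5 genes. On library totals C1R moved to -0.09, KRT6A to -0.2, LRG1 to -0.23 and UBE2C to -0.14 against untreated, and the FPKM fits gave -0.09 for C1R, -0.19 or -0.2 for KRT6A, -0.2 or -0.23 for LRG1 and -0.14 for UBE2C. HNRNPU against lefamulin moved to -0.04 in the same fits and to 0.08 with RLE factors and DESeq2. LRG1 was -0.04 without untreated replicate 1 and -0.01 without retapamulin replicate 3. All these values are within 0.3 of 0.

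Leaving out each library in turn gave 5198 to 5280 genes higher and 5597 to 5729 lower than untreated. No pairing by replicate number was seen between untreated and treated libraries (correlations of deviations 0.059, -0.07 and 0.09). Libraries with differing numbers gave -0.174 to 0.116, and the labels do not say whether samples were paired. A fit with the replicate block called 5319 higher and 5800 lower. Depth limits the genes near the floor of 3 counts in a group, and 8338 genes were not tested. With 3 libraries a group that may be technical repeats, of 1 cell line, the p-values do not cover differences between cultures.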

Other observations

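Gene groups outside the main account are given here, and several but not all of them stood away from baseline. Of 18 tested epidermal proteases and inhibitors 9 rose and 4 fell (9 and 7 on library totals), and the serine protease inhibitors led the rises. SERPINB3, with close paralogs, was 1618-fold higher (95% counting interval 289.9 to 63950), at 13.7 ± 0.209 CPM, far from the 544 ± 40.2 CPM of M5 alone. SERPINB2, an inhibitor of plasminogen activators, was higher than with M5, at 36.7 ± 3.02, 175 ± 3.15 and 283 ± 9.07 CPM in untreated, M5 and treated cells, and SERPINB13, at 29.5 ± 1.84, 230.0 ± 8.66 and 18.98 ± 1.11 CPM, was below its baseline. Prostaglandin genes fell in 8 of 11 cases and rose in 1, PTGS2, the inducible cyclooxygenase, which was at 6.82 ± 1.24 CPM untreated and 208 ± 6.54 CPM treated. HPGD, which breaks prostaglandins down, fell from 2.78 ± 0.588 to 0.0887 ± 0.0779 CPM, and the receptor PTGER2 from 6.15 ± 0.36 to 0.692 ± 0.136 CPM.

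Xenobiotic genes of the aryl hydrocarbon receptor fell in 7 of 12 cases and rose in 4 (median -0.74). CYP1B1, a target enzyme of the receptor, was at 136, 133 and 132 CPM untreated, 175, 179 and 180.4 CPM with M5 and 32.5, 32.2 and 30.7 CPM treated, and TIPARP, another target, rose from 45.9 ± 2.82 to 131 ± 1.92 CPM. Retinoid genes fell in 8 of 14 cases and rose in 4, with STRA6, the retinol importer, down from 32.04 ± 1.54 to 11.6 ± 0.621 CPM. Regulators of AU-rich mRNA decay, the route by which many cytokine mRNAs are degraded, rose in 6 of 14 cases and fell in 5. Their median of 0.02 turned to -0.23 on library totals. These shares are close to the 37.6% higher and 40.9% lower among all genes tested, so no direction is given for the list. ZC3H12A, the endoribonuclease regnase 1, rose from 12.2 ± 1.12 to 134 ± 3.18 CPM and ZFP36, tristetraprolin, from 16.1 ± 0.579 to 70.4 ± 4.84 CPM, while the binding proteins ELAVL1 and HNRNPD fell, with log2 fold changes of -0.37 and -0.43. Of 1483 long noncoding RNAs tested by RefSeq type 308 (20.8%) were higher and 528 (35.6%) lower, beside 40% and 41.9% of 12247 protein-coding genes. These types were not matched for level, and of the 3552 tested genes with the lowest mean level 690 were higher and 1375 lower.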
